A study of Mus musculus with 2 samples.

Results

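The genes described here are 10 parts of the machinery that makes and uses microRNAs: Drosha, Dgcr8, Xpo5, Dicer1, Tarbp2, Ago1, Ago2, Ago3, Ago4 and Tnrc6a. They were taken by gene symbol from the deposited tables, in which each symbol occurred once, and they make up 10 of the 52636 genes listed. The study compared RNA from C57BL/6 mice of 8 weeks, wild type (WT) on one side and lacking the microRNA miR-29a (miR-29a KO) on the other, with retina named as the tissue. Each genotype was sequenced as 1 library, and each library came from retinas of 3 mice combined into a single sample, so no spread between animals or libraries can be measured. The labels describe neither the construction of the knockout allele nor the sex of the mice. Differences below are between 2 libraries, and the error given with them is counting error only.

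The WT-labelled library held 26805902 counts and the KO-labelled library 24876925, and the 10 genes took 0.0359% and 0.0413% of them. Defining markers of the named tissue were at or near 0, while some retinal markers that other cells also make were not. Of 12 rod and cone markers, 6 had no count in the WT-labelled library and 7 none in the KO-labelled library, and the 12 summed to 1.6 and 1.33 CPM (counts scaled to the library total). Of 12 markers of other retinal neurons, 6 had no count in either library, among them Grm6 and Pou4f2, and the 12 summed to 84.9 and 102 CPM, mostly Prkca and Rbpms. The 6 markers of Mueller glia, the supporting cells of the retina, summed to 495 and 479 CPM, mostly Dkk3 and Glul, with 24 and 11 counts for Rlbp1 and 0 for Aqp4. The 8 fibroblast markers, led by the type I collagen gene Col1a2, summed to 7500 and 8735 CPM. Counts for Xist, the RNA that coats the silenced X chromosome, were 4288 (WT) and 0 (KO). All 4 Y-linked genes measured were over 2-fold higher in the KO-labelled library. Ddx3y had 67 and 376 counts, Eif2s3y 50 and 280, Kdm5d 30 and 310, and Uty 17 and 126. The WT-labelled library thus held both Xist and Y-linked counts, and the KO-labelled library Y-linked counts without Xist. The libraries therefore differed in these sex-linked transcripts as well as in label. In the differences below, the part of sex cannot be told apart from that of genotype. The microRNA genes Mir29a, Mir29b-1, Mir29b-2 and Mir29c had 0 counts in both libraries. Hairpins of that size are seldom retained in such libraries, so they do not check the genotype. For these reasons the libraries are called by their labels.

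MicroRNAs are cut from longer transcripts in 2 steps. In the nucleus the Microprocessor, made of the RNase III enzyme Drosha and its RNA-binding partner Dgcr8, frees a hairpin, which Exportin 5 (Xpo5) carries to the cytoplasm. There Dicer, helped by Tarbp2, trims it to a duplex, and a strand of the duplex is loaded into an Argonaute protein (Ago1 to Ago4), which pairs with target mRNAs and recruits a TNRC6 scaffold that calls in the enzymes shortening the poly(A) tail. Loss of Dicer in retinal cells is known to lead to their degeneration, and miR-29 is known for restraining genes of the extracellular matrix.

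All 10 genes were detected in both libraries, at levels that ran from the middle to the upper range for 8 of them and lay lower for Ago3 and Ago4. Levels of different genes are compared on the FPKM scale, on which the authors' counts are divided by gene length and library size. In the WT-labelled library the order was Xpo5 (11.1 FPKM), Tarbp2 (10.2), Drosha (8.51), Ago1 (7.33), Ago2 (5.71), Tnrc6a (3.45), Dgcr8 (2.77), Dicer1 (1.55), Ago3 (0.600) and Ago4 (0.534). Xpo5 lay at the 77.7 percentile of the 19346 genes with a value above 0 in that library, Dicer1 at the 48.0 and Ago4 at the 34.5 percentile. Counting intervals of neighbours in this order overlapped for 2 pairs, Xpo5 with Tarbp2 and Ago3 with Ago4.

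In the KO-labelled library Xpo5 again came first, at 13.7 FPKM and the 81.0 percentile of 19545 genes. It was followed by Ago1 (8.69), Drosha (8.27), Tarbp2 (8.04), Ago2 (7.51), Dgcr8 (3.25), Tnrc6a (3.22), Dicer1 (1.79), Ago3 (0.807) and Ago4 (0.371). From Ago1 down to Ago2 each neighbour's interval overlapped the next, as did those of Dgcr8 and Tnrc6a. Dicer1 thus stood below every gene but Ago3 and Ago4 in both libraries. The first place of Xpo5 rested on the gene length behind its FPKM. Its ratio of count to FPKM corresponded to 3709 bases, against 6859 exonic bases in GENCODE M21 (GRCm38), while the other members came within 6% of their exonic length or matched it. With counts divided by the longest annotated transcript instead, Tarbp2 came first in both libraries, and Xpo5 ranked 4 in the WT-labelled library and 3 in the KO-labelled library.

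**Figure D1:**
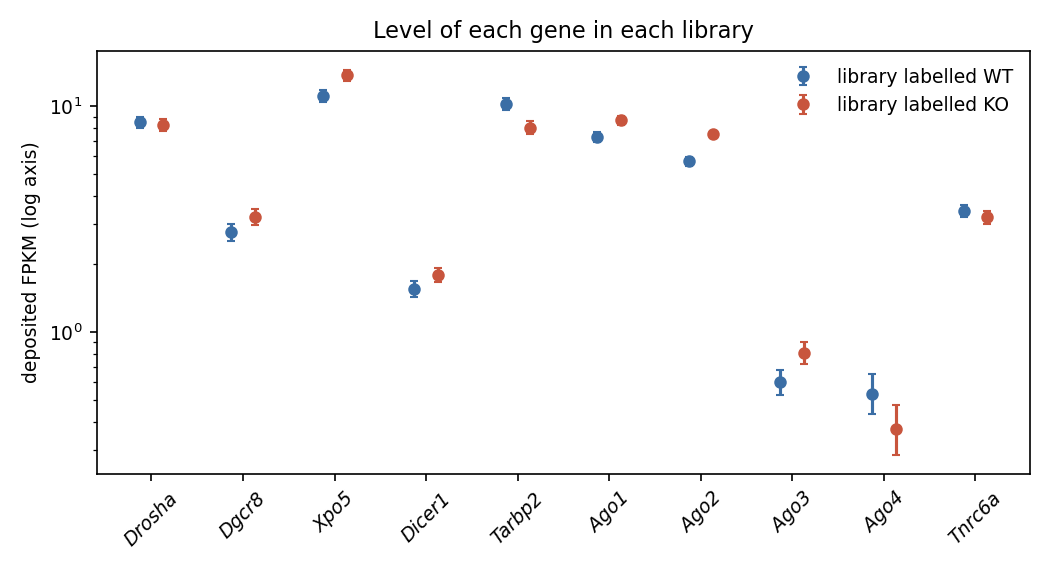
Deposited FPKM on a log axis for each of the 10 genes, with 1 point per library and bars for the 95% Poisson counting interval. Ago3 and Ago4 lie below 1 FPKM in both libraries, and the other 8 genes lie between 1.55 and 13.7.

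Between the libraries each of the 10 genes differed by less than 1.5-fold, as most genes did. The log2 ratio of KO over WT, taken on CPM after adding 0.5, ran from -0.40 for Ago4 to 0.46 for Ago3, was above 0 for 7 genes and below 0 for 3, and had a median of 0.27. Unless another setting is named, ratios of KO over WT are of CPM, also where FPKM values are given beside them. The CPM ratio is 1.04 times the FPKM ratio (median over genes). A minimum of 50 counts in at least the higher of the libraries was set, and all 10 passed it. Over all 12382 genes that did so, the median was 0.06, with a 25th percentile of -0.25 and a 75th of 0.37. Ago2 and Ago3 lay above that 75th percentile and Tarbp2 and Ago4 below the 25th, so the 10 were spread much like genes at large. None of the 10 reached 2-fold in either direction, a size that 4.47% of all genes reached as higher in the KO-labelled library and 2.82% as lower. None reached 1.5-fold either, against 13.3% of all genes as higher and 8.88% as lower.

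Counting error alone was small enough to separate the libraries for most of these genes. The 95% counting interval of the CPM ratio lay wholly above 1 for 6 genes (Dgcr8, Xpo5, Dicer1, Ago1, Ago2 and Ago3) and wholly below 1 for Tarbp2, and it included 1 for Drosha, Ago4 and Tnrc6a. At this depth 40.3% of all genes had an interval above 1 and 31.2% below 1, so an interval that leaves out 1 is common and speaks of these libraries, not of the genotypes. The median of the 10 genes was 0.09 after subtracting from each log2 ratio the median of genes of like GC content, since across the 12371 genes with an annotated transcript, which are not independent replicates, the log2 ratio fell with GC content (Spearman's rho -0.44). After that step 7 of the 10 were still above 0.

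Macrophage markers and some endothelial markers differed far more than these genes did. Of 10 macrophage markers 9 passed the minimum and all 9 were 2-fold higher in the KO-labelled library, against 4.47% of all genes. The 10 summed to 157 and 578 CPM, with no marker at 0. Of 8 endothelial markers 6 passed and 4 were 2-fold higher, with sums of 24.8 and 46.9 CPM and none at 0. The endothelial markers Tek (log2 ratio 0.03) and Emcn (-0.25) passed the minimum but were not among those 4. Fewer cells of a kind and less RNA per cell cannot be told apart in pooled tissue, and the part of either cell type in the differences of the 10 genes was not tested.

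**Figure D2:**
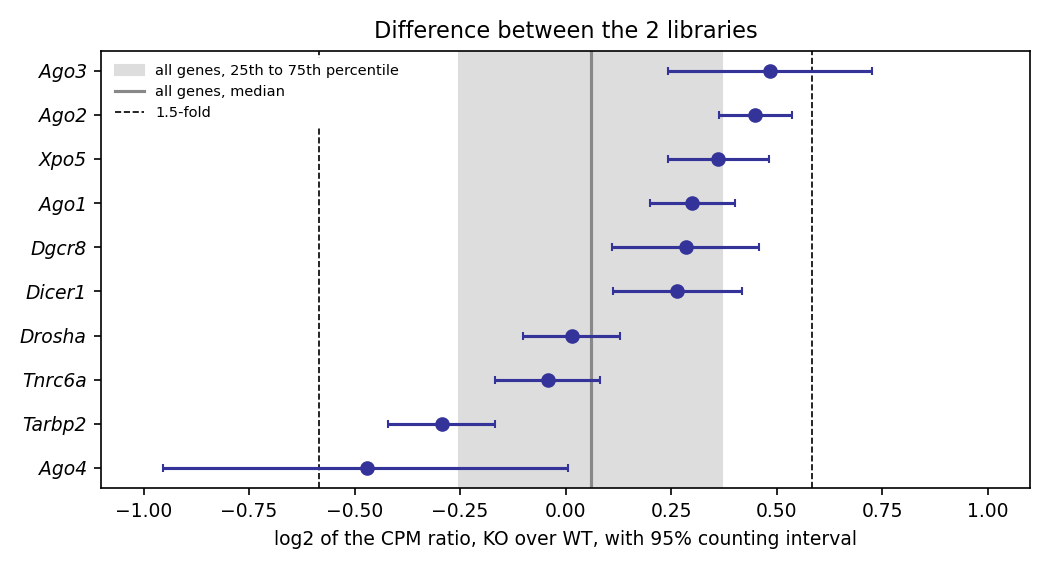
Log2 of the CPM ratio of KO over WT for each gene, with its 95% counting interval, ordered by the ratio. The grey band and line give the 25th to 75th percentile and the median of all 12382 genes (with 0.5 CPM added), and the dashed lines mark 1.5-fold. All 10 points lie between the dashed lines.

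Of the Microprocessor genes, Drosha was close to equal in the libraries and Dgcr8 stood higher in the KO-labelled library. Drosha (chromosome 15, 12824815 to 12935291, GRCm38), the enzyme that cuts, had 1280 counts in the WT-labelled library and 1200 in the KO-labelled library. Its levels were 47.8 CPM (counting interval 45.2 to 50.4) and 48.2 CPM (45.5 to 51.0), a ratio of 1.01 (0.933 to 1.09), and of the 10 genes it differed least. Dgcr8 (chromosome 16, 18253948 to 18289246), the partner that recognises the hairpin's stem, had 512 and 579 counts. That is 19.1 CPM (17.5 to 20.8) and 23.3 CPM (21.4 to 25.3), with intervals that do not overlap and a ratio of 1.22 (1.08 to 1.38). On FPKM, Drosha exceeded Dgcr8 by 3.07 times (2.77 to 3.41) in the WT-labelled library and by 2.54 times (2.30 to 2.81) in the KO-labelled library. With counts divided by the longest transcript these ratios were 2.36 (2.13 to 2.62) and 1.96 (1.77 to 2.17). Their size thus depended on the length used, which the counting intervals do not cover.

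Drosha is known to act on the Dgcr8 transcript itself, because that transcript carries microRNA hairpins. In the annotation 2 microRNA genes on the same strand lie within Dgcr8 exons, Gm24572 (88 exonic bases shared) and Mir1306 (79). Mir1306 is on the minus strand at chr16:18284239-18284317 (RefSeq, GRCm38.p6). It is shown here as an example of the hairpins that link the paired subunits, with both mature arms in capitals.
Mir1306 hairpin: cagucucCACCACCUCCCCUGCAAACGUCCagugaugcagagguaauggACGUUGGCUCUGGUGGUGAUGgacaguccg
The rows for Mir1306 and Gm24572 had 0 counts in both libraries, and whether the counting would have given a read in a hairpin to Dgcr8, to the microRNA gene or to neither is not given in the sources used here. Dgcr8 also shares 825 exonic bases, 10.7% of its exonic length, with Trmt2a on the opposite strand. Trmt2a had 1288 and 946 counts, so it differed in the other direction, and the strand setting of the counting is not given.

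The 8 helper genes listed with the Microprocessor had log2 ratios from -0.17 to 0.64, and with Drosha and Dgcr8 the group had a median of 0.28 (0.07 relative to genes of like GC content) and none past 2-fold. Ddx5, an RNA helicase that assists cropping of some hairpins, had 33.0 and 45.6 FPKM (log2 ratio 0.52). Its close relative Ddx17 had 63.8 and 54.6 FPKM (-0.17), so the pair of helicases differed in opposite directions. Hnrnpa1, which binds certain hairpins, had 84.1 and 97.4 FPKM (0.27). The lead of the group was Ncbp1, a subunit of the nuclear cap-binding complex, with 1022 and 1486 counts, the only one of the 10 past 1.5-fold. It was picked for its value, as were Cnot7, Mov10 and Zcchc11 below.

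Xpo5 (chromosome 17, 46202782 to 46243598), the carrier of hairpins out of the nucleus, had 1042 and 1243 counts. Its levels of 38.9 CPM (36.5 to 41.3) and 49.97 CPM (47.2 to 52.8) do not overlap, and the ratio was 1.29 (1.18 to 1.40). Ran, the small GTPase that Exportin 5 needs to hold its cargo, stood higher in the same library by more. It had 68.0 and 96.0 FPKM and a CPM ratio of 1.47 (1.41 to 1.52). Both export genes were therefore higher in the KO-labelled library, by less than 1.5-fold each.

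The Dicer complex was split. Dicer1 (chromosome 12, 104687742 to 104751952), the cytoplasmic RNase III enzyme, had 659 and 735 counts, or 24.6 CPM (22.7 to 26.5) and 29.5 CPM (27.4 to 31.8), and its ratio was 1.20 (1.08 to 1.34). Tarbp2 (chromosome 15, 102518192 to 102523676), the double-stranded RNA binding protein that holds Dicer's substrate, had 1181 and 894 counts. Its levels were 44.1 CPM (41.6 to 46.6) and 35.9 CPM (33.6 to 38.4), which made it 1.23-fold lower in the KO-labelled library (1.12 to 1.34), and it was the only member whose interval lay below 1. Per length Tarbp2 exceeded Dicer1 by 6.60 times (5.99 to 7.27) in the WT-labelled library and 4.48 times (4.06 to 4.94) in the KO-labelled library.

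Prkra, the relative of Tarbp2 that can take its place beside Dicer, had 12.9 and 13.5 FPKM. Its CPM ratio was 1.09 (0.974 to 1.21), an interval that includes 1. Adar, which edits adenosines in double-stranded RNA and is known to have an interferon-induced form, had 1380 and 749 counts. Its ratio of 0.585 (0.534 to 0.640) made it the lowest of the 4 genes in this group and the one past 1.5-fold. Tarbp2 has the highest GC content of the 10 members (54.1%), and its log2 ratio was -0.29 as measured and -0.16 relative to genes of like GC content. Dicer1 stood at 0.26 and 0.08 on the same scales.

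Among the Argonautes, Ago1, Ago2 and Ago3 stood higher in the KO-labelled library and Ago4 lower. Ago2 (chromosome 15, 73095844 to 73184935), the Argonaute known for cutting fully paired targets, had the most counts of all members, 1984 and 2515. It stood at 74.0 CPM (70.8 to 77.3) and 101 CPM (97.2 to 105), well apart on the counting scale, with a ratio of 1.37 (1.29 to 1.45). Ago2 shares 219 exonic bases, 1.56% of its exonic length, with Chrac1 on the opposite strand, which had 1486 and 1099 counts. Ago1 (chromosome 4, 126435012 to 126468583) had 1509 and 1725 counts. Its levels were 56.3 CPM (53.5 to 59.2) and 69.3 CPM (66.1 to 72.7), a ratio of 1.23 (1.15 to 1.32).

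The remaining Argonautes were scarce. Ago3 (chromosome 4, 126331704 to 126429556) had 252 and 327 counts, or 9.40 CPM (8.28 to 10.6) and 13.1 CPM (11.8 to 14.6). Its ratio of 1.40 (1.18 to 1.65) was the highest among the members. Ago4 (chromosome 4, 126489541 to 126533472) had 94 and 63 counts, or 3.51 CPM (2.83 to 4.29) and 2.53 CPM (1.95 to 3.24), levels whose intervals overlap. Its ratio was 0.722 (0.516 to 1.004), so a lower level was not separable from counting error, although with TMM or median-of-ratios scaling the interval lay below 1. Relative to genes of like GC content, the log2 ratios were 0.26 for Ago1, 0.27 for Ago2, 0.14 for Ago3 and -0.59 for Ago4, and Ago4 then passed 1.5-fold.

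Ago3, Ago1 and Ago4 sit side by side on chromosome 4 in the same orientation, with 5455 bases between Ago3 and Ago1 and 20957 between Ago1 and Ago4. Ago3 and Ago1 differed in the same direction and Ago4 in the other. The per-length level of Ago3 relative to Ago1 was 0.0818 (0.0713 to 0.0936) in the WT-labelled library and 0.0929 (0.0823 to 0.105) in the KO-labelled library, intervals that overlap. The per-length level of Ago3 relative to Ago4 was 1.12 (0.883 to 1.44) in the WT-labelled library and 2.18 (1.66 to 2.90) in the KO-labelled library, intervals that do not overlap. Ago4 relative to Ago1 was 0.0728 (0.0585 to 0.0897) and 0.0427 (0.0327 to 0.0549), also without overlap. Of the windows of 50 bases in the longest Ago1 transcript, 1.74% occur unchanged in the longest transcript of another Argonaute. The share was 0.778% for Ago3, 0.0291% for Ago2 and 0 for Ago4. Inexact matches and other transcripts were not compared, so these shares set no limit on the reads that paralogs could share.

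Ago1 and Ago2 together made up most of the Argonaute transcripts in either library. Of the summed FPKM of the 4 genes, 14.2 in the WT-labelled library and 17.4 in the KO-labelled library, Ago1 took 51.7% and 50.01%, and Ago2 took 40.3% and 43.2%. Ago3 took 4.23% and 4.65%, and Ago4 took 3.77% and 2.14%. The ratio of Ago2 to Ago1 was 0.779 (0.728 to 0.833) and 0.864 (0.812 to 0.919), intervals that overlap, which does not show the ratios to be equal. Per longest transcript the ratio was 0.689 (0.644 to 0.737) and 0.764 (0.718 to 0.812). The order of the 4 shares was the same in both libraries. In the WT-labelled library Ago3 and Ago4 were not separable from counting error (ratio 1.12, 0.883 to 1.44). The share that differed most in proportion was that of Ago4.

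**Figure D3:**
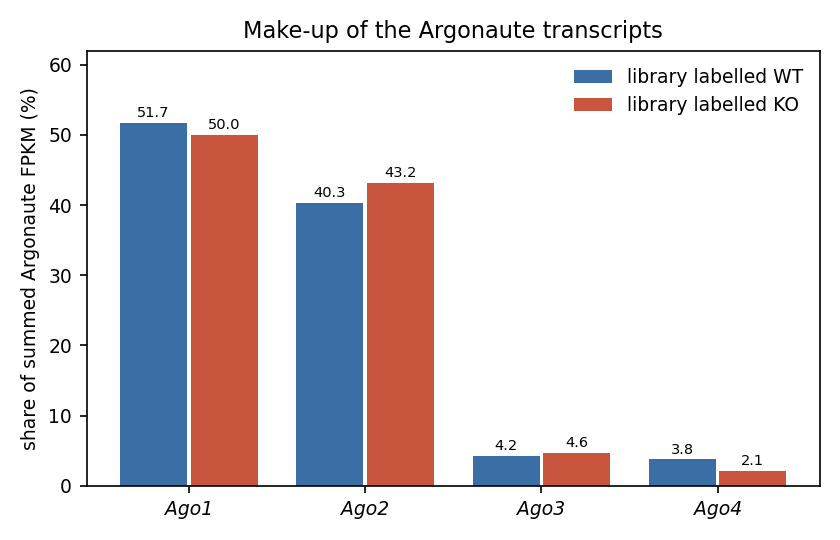
Share of the summed deposited FPKM of Ago1 to Ago4 taken by each gene, as bars from 0 for each library. Ago1 and Ago2 take 51.7% and 40.3% in the WT-labelled library and 50.01% and 43.2% in the KO-labelled library.

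The TNRC6 scaffolds did not stand higher in the KO-labelled library. Tnrc6a (chromosome 7, 123123885 to 123195296), also called GW182, had 1110 and 1000 counts. It stood at 41.4 CPM (39.0 to 43.9) and 40.2 CPM (37.7 to 42.8), with a ratio of 0.971 (0.890 to 1.06), and its intervals overlap. Its relatives had log2 ratios below 0 as well. Tnrc6b had 2.75 and 2.53 FPKM with a CPM ratio of 0.954 (0.878 to 1.04). Tnrc6c had 4.11 and 3.26 FPKM with a CPM ratio of 0.825 (0.760 to 0.896). The group's median log2 ratio was -0.07, against 0.06 over all genes. Relative to genes of like GC content Tnrc6a stood at -0.23.

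Genes that carry out the silencing downstream of TNRC6 differed by less than 1.5-fold in every case. Of 13 genes of poly(A) binding and deadenylation 11 had a log2 ratio above 0, with a median of 0.30 and a range from -0.14 to 0.56, against 55.0% above 0 and a median of 0.06 over all genes. Relative to genes of like GC content 9 of the 13 lay above 0, with a median of 0.06. Pabpc1, the poly(A)-binding protein that TNRC6 contacts, had 175 and 191 FPKM (log2 ratio 0.18). Cnot8, a deadenylase subunit, had 21.6 and 25.7 FPKM (0.30), Cnot11 had 10.2 and 10.9 FPKM (0.16), and the lead was the deadenylase Cnot7 at 0.56. The 10 genes of repression and decapping had a median of 0.09, which turned to -0.21 relative to genes of like GC content. Among them the helicase Ddx6 had 24.4 and 25.1 FPKM (0.09), Lsm14a had 8.70 and 10.5 (0.32), and the decapping scaffold Edc4 had 14.4 and 10.8 (-0.36).

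The widest differences in the pathway were among chaperones that help load Argonautes and serve many other proteins. Hsp90aa1 had 2461 and 5325 counts, 2.33-fold higher in the KO-labelled library on CPM (2.22 to 2.45). Hspa8 had 180 and 353 FPKM, and on CPM it was 2.04-fold higher (2.00 to 2.07). On the log2 scale they stood at 1.22 and 1.03, and relative to genes of like GC content at 0.89 and 0.77, so neither then passed 2-fold. Hspa8 also fell just under 2-fold with TMM factors (0.996), median-of-ratios factors (0.96), FPKM (0.97) and relative to genes of like length (0.98). Hsp90ab1, the more abundant HSP90 gene, had 531 and 628 FPKM (log2 ratio 0.30), and the co-chaperone Fkbp4 had 86.0 and 76.5 (-0.11). At the other end stood Mov10, an RNA helicase found with Argonautes, with 1854 and 954 counts (-0.84). The 9 genes of this group thus spanned both directions.

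Genes of microRNA tailing, trimming and turnover also pointed both ways, with a median of 0.12 that turned to -0.06 relative to genes of like GC content. Zswim8, a ubiquitin ligase adaptor known for target-directed microRNA decay, had 24.6 and 18.6 FPKM. Its CPM ratio was 0.786 (0.754 to 0.819). The nuclear exonuclease Xrn2 had 9.92 and 15.8 FPKM, and on CPM it was 1.66-fold higher (1.53 to 1.80). The poly(A) exonuclease Parn had 11.4 and 11.97 FPKM (CPM ratio 1.09, 0.988 to 1.20). The terminal uridylyltransferase Zcchc11 had 349 and 215 counts. Lin28a and Lin28b, blockers of let-7 maturation and named here because they were the undetected genes of this list, had 0 counts in both libraries, which allows up to 0.112 and 0.121 CPM. The germline relatives of the Argonautes stayed under the minimum, with 0 and 0 counts for Piwil1, 19 and 40 for Piwil2, and 42 and 13 for Piwil4.

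Over the 67 listed pathway genes, the members included, 62 passed the minimum. Of these 2 were 2-fold higher in the KO-labelled library (the chaperones above) and 0 were lower, against 4.47% and 2.82% of all genes. Of the same 62, 43 had a log2 ratio above 0, and the median was 0.19. The 57 genes other than the members had a median of 0.18 over the 52 that passed. Over all genes 55.0% lay above 0. Relative to genes of like GC content the median of the 62 was 0.04, 35 of them lay above 0, and no gene was past 2-fold.

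**Figure D4:**
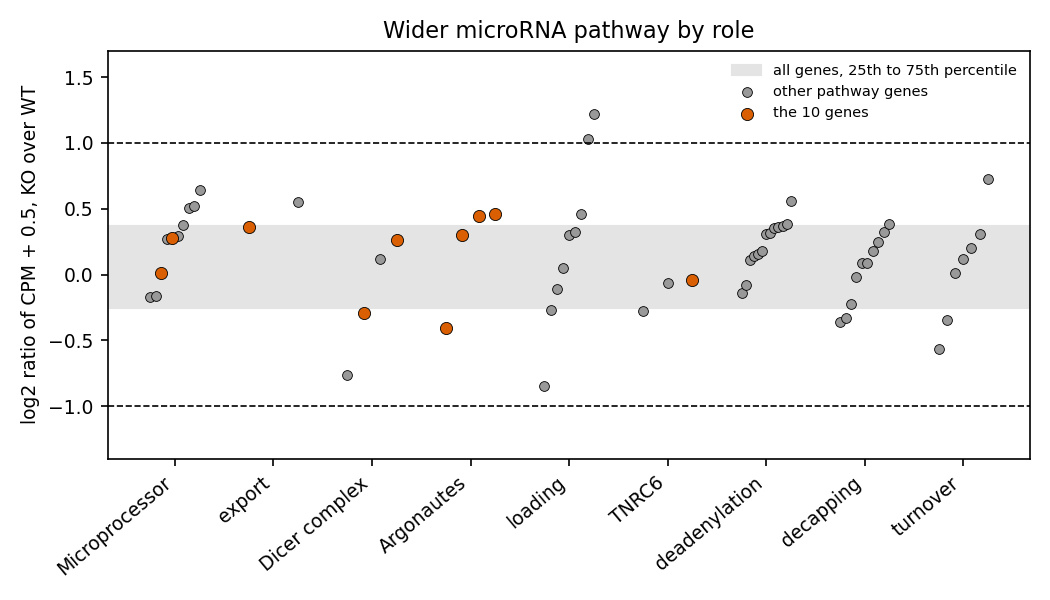
Log2 ratio of KO over WT (CPM with 0.5 added) for the 62 listed pathway genes past the minimum, by role, with the 10 described genes in orange. The grey band is the 25th to 75th percentile of all 12382 genes and the dashed lines mark 2-fold, which 2 genes of the loading group pass.

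Because the labelled genotype lacks miR-29a, the 3' untranslated regions of the 10 transcripts were searched for its target site. The mature miR-29 forms are shown with the seed, bases 2 to 8, in capitals, since the seed is what the site pairs with (RefSeq, GRCm38.p6). miR-29a-3p lies on the minus strand at chr6:31062673-31062694, miR-29b-3p in copies at chr6:31063025-31063047 and chr1:195037091-195037113, and miR-29c-3p at chr1:195037600-195037621.
miR-29a-3p: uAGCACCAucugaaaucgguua
miR-29b-3p: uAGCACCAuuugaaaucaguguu
miR-29c-3p: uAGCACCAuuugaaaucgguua
The 3 share the seed, so a site for miR-29a is also a site for miR-29b and miR-29c, whose genes are not named as deleted in the labels. The motif searched on the transcript strand was TGGTGCT, the reverse complement of the seed, in the longest annotated 3' untranslated region of each gene (GENCODE M21).

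The motif occurred in 4 of the 10 genes, Xpo5, Dicer1, Ago1 and Ago3, and in 17.4% of the 11585 protein-coding genes searched. The median length searched was 3540 bases for the members and 1399 for all genes, and a longer region holds any motif more often. Each match is shown with the bases around it, the motif in capitals.
Xpo5, bases 1097 to 1103 of 1327: cctcctcctgccTGGTGCTtggg
Dicer1, bases 1195 to 1201 of 3851: gcattttcccgtTGGTGCTacgt
Ago1, bases 3925 to 3931 of 4491: gagaggctgggtTGGTGCTctcc
Ago3, bases 5410 to 5416 of 12742: cttttttgaagaTGGTGCTgtag
Ago3, bases 10727 to 10733 of 12742: aattcctttcggTGGTGCTaaag
In Dicer1 and at the second place in Ago3 the motif is followed by an A, the form called an 8-mer site, which 3.53% of all genes searched hold. A match is a stretch of letters and not a shown site of binding.

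The 4 genes with the motif had log2 ratios of 0.36 (Xpo5), 0.26 (Dicer1), 0.30 (Ago1) and 0.46 (Ago3), all above 0, with a median of 0.33. The 6 without it ranged from -0.40 (Ago4) to 0.45 (Ago2), with 3 above 0 and a median of -0.01. The ranges overlap, since Ago2, with 11064 bases searched and no match, stood close to Ago3. Relative to genes of like GC content the 4 with the motif stood at 0.32, 0.08, 0.26 and 0.14 in the same order. The 6 without it then ranged from -0.59 (Ago4) to 0.27 (Ago2). Over all genes searched the median was 0.13 with the motif and 0.05 without. Across genes the log2 ratio also rose with transcript length (Spearman's rho 0.15) and fell with GC content (-0.44), which these medians leave uncorrected. With 4 and 6 genes and 1 library per genotype, these values describe the members and carry no test.

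The sign of the difference held for 9 of the 10 genes under each processing setting tried. Drosha, the gene nearest to 0, ranged from -0.13 to 0.05 and kept its sign in 7 of 11 settings. The others kept theirs in all 11, or in 10 for Ago4, which drops out at a minimum of 200 counts. Ago2 ranged from 0.27 to 0.45, Xpo5 from 0.22 to 0.36 and Ago1 from 0.16 to 0.30. Ago3 ranged from 0.14 to 0.48 and Dicer1 from 0.08 to 0.26, with GC content giving the low end of each.

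**Figure D5:**
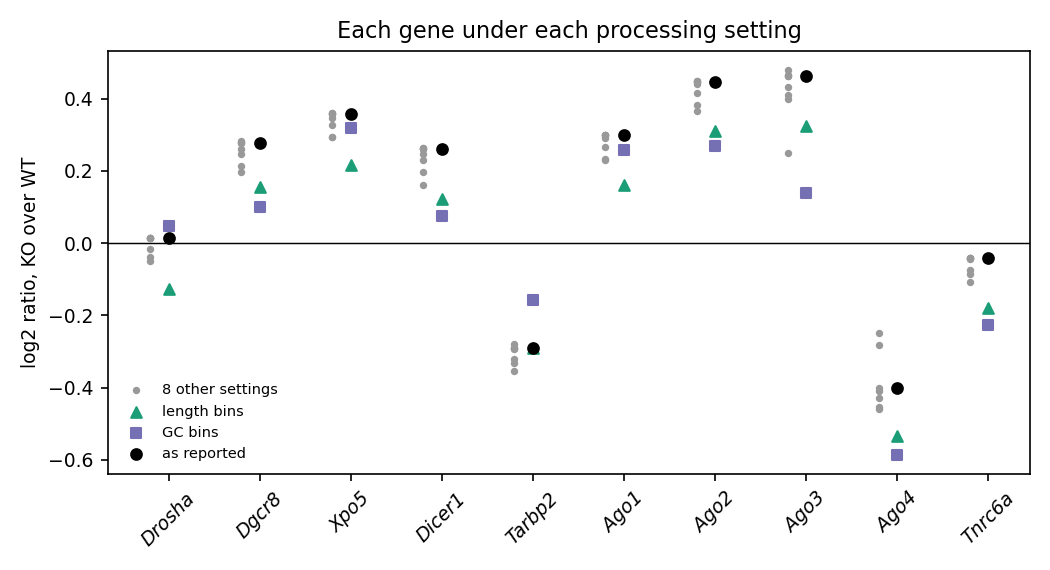
Log2 ratio of KO over WT of each gene as reported (black), relative to genes of like GC content (squares), relative to genes of like transcript length (triangles) and under 8 other settings (grey points). Ago1, Ago2, Ago3, Xpo5, Dgcr8 and Dicer1 stay above 0 and Tarbp2, Ago4 and Tnrc6a below 0 in every setting, while Drosha crosses it.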

How the data were processed

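Total RNA was depleted of ribosomal RNA and sequenced, per the labels' protocols. The submitters' processing notes name HISAT2 and the build mm10 (GRCm38). The deposited tables give whole-number counts and an FPKM value per gene. For the read counter, annotation release, strand setting and FPKM scaling, nothing is given in the sources used here. FPKM as the authors deposited it matched a length within 5% of the GENCODE M21 exonic length for 90.3% of protein-coding genes with 50 or more counts. The KO over WT ratio is 1.04 times larger on CPM than on the authors' FPKM.

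Counts were used as deposited and divided by their total, which was 26805902 and 24876925. Of the 52636 rows, 4 whose ratio of count to FPKM differed between tables by more than 1% were left out. Ratios of CPM carry 95% exact (Clopper-Pearson) intervals and single levels exact Poisson intervals. They cover counting error only, since each genotype has 1 library. PCR copies of a molecule cannot be told from separate molecules here, so the intervals may be too narrow even for counting error. The floor for 0 counts is 3 counts. With 1 library per group no test and no p-value was possible. Genes under 50 counts in both libraries were left out of ratios.

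The members and all lists were chosen with earlier results of these data known. Named genes were the members, the 3 most abundant other genes of each role (by FPKM) and those past 2-fold; Ncbp1, Cnot7, Mov10, Zcchc11, Lin28a and Lin28b were picked after their values were seen. Of the wider list, Tut4, Tut7 and Tent2 were found under Zcchc11, Zcchc6 and Papd4. GC content and length are those of the longest transcript, in 10 bins. The intervals were checked only on counts simulated with Poisson error, which hold no variation between animals, libraries or PCR copies. Scaling factors came from edgeR 4.0.16 and DESeq2 1.42.0 in R 4.3.3, intervals from scipy 1.17.1 and tables from pandas 2.3.3 in Python 3.11.15, with numpy 2.4.6 and figures by matplotlib 3.10.9.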

Additional observations from a re-analysis of the deposited data

How the results depend on the processing

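No member passed 2-fold under any of the 11 settings, and none was 1.5-fold higher. The median log2 ratio of the 10 members was 0.0879 relative to genes of like GC content, and that of the wider pathway 0.0413. In that setting 1 member, Ago4, was 1.5-fold lower. With edgeR's TMM factors and with median-of-ratios size factors the intervals of 2 members, Tarbp2 and Ago4, lay below 1, while 6 stayed above 1 by count. The pathway genes 2-fold higher numbered 1 with TMM factors, 1 with median-of-ratios factors, 1 with FPKM, 1 relative to genes of like length and 0 relative to genes of like GC content (Hspa8 dropped out in all 5, Hsp90aa1 in the last), and with no minimum 1 (Piwil4) was 2-fold lower. Per longest transcript Ago1 took 54.5% and 52.9% of the Argonaute level and Ago2 37.5% and 40.4%. The 8-mer occurred in 2 members. Of 99 other values of single members, 88 stayed within the main counting interval and 11 moved out of it, all 11 relative to genes of like GC content or length. Protein-coding genes only were a further setting for the genome-wide counts. No paired analysis was possible because each genotype has 1 library, and no library could be left out. The cause of these shifts was not tested. Depth limits Ago4 most, with 94 and 63 counts.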

Other observations

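The products of this machinery are not measured here, but transcripts that carry microRNAs are, and they were looked at after the values of the members were known. Of 2202 rows annotated as microRNA genes, 71 had a count in the WT-labelled library and 66 in the KO-labelled library, and 5 reached 50 counts. All these rows summed to 753 and 432 counts. Mir199a-1, a microRNA gene known from mesenchymal cells, was among the 5, with 63 and 41 counts and a ratio of 0.701 (0.461 to 1.06), an interval that includes 1. The predicted microRNA genes Gm23935, with 153 and 42 counts, and Gm27529, with 106 and 38, were over 2-fold lower in the KO-labelled library. Their ratios were 0.296 (0.205 to 0.419) and 0.386 (0.259 to 0.564). Of all genes past the minimum, 2.82% were 2-fold lower and 31.2% had an interval below 1. For the other two, Gm44349 (88 and 91 counts) and Mir703 (55 and 38), the interval included 1.

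Of 10 genes named as microRNA hosts, 2 passed the minimum. Mir22hg had 140 and 127 counts, a ratio of 0.977 (0.763 to 1.25). Mir99ahg had 75 and 45 counts, a ratio of 0.647 (0.437 to 0.948), an interval below 1 as for 31.2% of all genes. Mir17hg, the host of a growth-related cluster, had 3 counts in each library. The hosts of the neuronal microRNAs miR-124 and miR-9, Mir124a-1hg, Mir124-2hg and Mir9-3hg, were without a count in either library. The floor of 3 counts is 0.112 CPM (WT) and 0.121 CPM (KO).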
